A study of Mus musculus with 4 samples.

Results

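The genes described here are those whose transcripts were at least 2-fold more abundant in the testis of mice without the transcription factor RFX2. The testis RNA of 24-day-old male mice was sequenced from 2 Rfx2-/- samples (mutant 1 and mutant 2) and 2 control samples (control 1 and control 2). The mutant allele carries a neomycin resistance cassette in place of exons that encode the DNA binding domain, and it descends from a single embryonic stem cell clone. The sample labels call the controls wild type and the strain DBA, while the study's methods describe heterozygous controls on a mixed background of 129 and C57BL/6 origin, and this difference was not resolved. Expression was given as FPKM, fragment counts scaled by transcript length and by the mapped fragments of the sample, which allows levels to be compared between genes of different length.

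A gene was taken as raised when the mean of FPKM + 1 in the mutant samples was at least 2 times that in the control samples and both mutant values lay above both control values. It also had to reach an FPKM of 1 in 2 or more samples, and Tnfrsf21 was left out. The rule found 44 genes among 12985 genes that passed the expression filter, out of 22311 gene symbols. This is 0.339% of the genes tested, against 372 genes (2.86%) that were at least 2-fold lower with both mutant values below both controls. These genes were chosen by their FPKM in the same 4 samples, so their own differences are described without a test. In RNA of a whole testis, a change in the number of cells of a type and a change in the RNA per cell cannot be told apart.

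RFX proteins are winged-helix transcription factors that bind the X-box, an imperfect inverted repeat that was first recognised in the promoters of major histocompatibility complex (MHC) class II genes. They are known as activators of genes of cilia and flagella, and RFX2 is abundant in meiotic and early post-meiotic male germ cells. Genes that are higher in its absence are therefore the less familiar side of the mutant. They are a mixed group of signalling molecules, cytoskeletal proteins, gut and nerve genes and membrane proteins.

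Rfx2 itself was listed at 36.7 FPKM in mutant 1 and 39.8 FPKM in mutant 2, against 123 FPKM in control 1 and 89.4 FPKM in control 2. The mutant mean was 36.0% of the control mean, and transcripts of the targeted allele outside the deleted exons still count towards it. Of the cell type markers, those of elongating spermatids set mutant 1 apart, with a summed FPKM of 1471 in mutant 1, 6971 in mutant 2, 8254 in control 1 and 5659 in control 2. Round spermatid markers summed to 758 FPKM in mutant 1 and 1354 FPKM in mutant 2, with 1163 and 1012 FPKM in the controls. Spermatocyte markers lay between 3196 and 3666 FPKM in the 4 samples, and no marker of these 3 lists was at 0 throughout. Leydig cell markers summed to 478 and 258 FPKM in the mutants and 409 and 154 FPKM in the controls. Erythroid markers summed to 14.8 and 109 FPKM in the mutants and to 26.5 and 120 FPKM in the controls. In both genotypes the Leydig sum was thus higher in the sample numbered 1 and the erythroid sum in the sample numbered 2. What this shared order comes from was not tested. Epididymis markers summed to 8.47 FPKM in mutant 1, 0.294 FPKM in mutant 2, 0.431 FPKM in control 1 and 3.90 FPKM in control 2. Without mutant 1 the rule returned 99 genes, which held 41 of the 44, and without control 1 it returned 82 genes, which held 40 of the 44.

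Sequences just before the start site were read from RefSeq (GRCm38.p6), which held a promoter of 32 of the 44 genes. Ccl1 and Dbn1 are shown first because they had the largest increases among the genes with an entry, apart from the RIKEN clone gene A530064D06Rik. Their last 150 bases before the start site lie at chr11:82179813-82179962 on the minus strand and at chr13:55488077-55488226 on the minus strand, written 5′ to 3′ in the direction of transcription.
Ccl1: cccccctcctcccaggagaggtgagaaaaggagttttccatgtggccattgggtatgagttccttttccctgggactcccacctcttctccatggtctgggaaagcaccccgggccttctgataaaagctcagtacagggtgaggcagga
Dbn1: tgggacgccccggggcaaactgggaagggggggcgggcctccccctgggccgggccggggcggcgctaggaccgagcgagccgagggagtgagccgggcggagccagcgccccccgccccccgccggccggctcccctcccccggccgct
The Dbn1 stretch is rich in G and C, with a GC content of 76.7% over its 300-base promoter, and that of Ccl1 is 53.3%. None of the searched motifs was found in either of them.

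Short motifs were then searched in the 300-base promoters, from 250 bases before to 50 bases after the start, on both strands. The X-box, taken as the standard consensus with a gap of 0 to 3 bases between its arms, matched the promoter of Ddx31 alone among the 32 genes (3.12%), against 2.51% of the promoters of 10352 genes tested. Both arms had to match in full, so looser forms of the X-box were not counted here, in H2-Aa or elsewhere. The cAMP response element (TGACGTCA) was found in 3 of the 32 promoters (9.38%), those of H2-Aa, Pcsk1 and Zfr2, against 3.65% of all. The letters of a TATA box (TATAAA) stood in 6 of the 32 (18.8%), against 8.81% of all, at any place and on either strand. They lay after the start in Car4, on the opposite strand in Mypn and Sv2b, and began at -86 in Epgn and -124 in Zbtb8os. The 30 bases around a match are shown for the X-box, the cAMP response elements and the TATA box that lies, on the strand of its gene, nearest to the usual place before the start, with the match in capitals. Ddx31 lies at chr2:28840353-28840382 on the plus strand, H2-Aa at chr17:34287879-34287908 on the minus strand, Pcsk1 at chr13:75089768-75089797 on the plus strand, Zfr2 at chr10:81233143-81233172 on the plus strand and Cyp2c55 at chr19:39006978-39007007 on the plus strand.
Ddx31: gaccccgtcGTTGCTAGGCAACgccaccct
H2-Aa: gctggcaacttTGACGTCAtcacaagagaa
Pcsk1: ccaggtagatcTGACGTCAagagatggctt
Zfr2: gggcaaggcccTGACGTCActcccgtgggc
Cyp2c55: ggcagctagcatTATAAAagccctgggctg
The X-box of Ddx31 ran from base -44 to base -32 of the start site, which is counted as 0, and was read on the strand opposite to the gene. The cAMP response element lay at -74 to -67 in H2-Aa, at -78 to -71 in Pcsk1 and at -9 to -2 in Zfr2. In H2-Aa the bases ggcaac shortly before this element fit an arm of the X-box consensus. Whether the element of H2-Aa is part of a looser X-box was not tested. The TATA box of Cyp2c55 lay at -29 to -24. The octamer ATGCAAAT, which POU factors of the class of Pou2f3 bind, was found in 0 of the 32 promoters, against 1.40% of all. The AP-1 element TGANTCA, which dimers of BATF and JUN proteins bind, was found in 3 promoters (9.38%), those of Ptgds, Sbsn and Sec31b, against 6.21% of all. AP-1 and cAMP response elements were counted apart and share no letters here. A match in a window is a description of its letters and does not show binding.

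A wider window reached 1000 bases on either side of a start in the annotation of the authors' build (NCBIM37). This start was the most upstream among transcripts of the same type as the gene, such as protein coding. In this window, 2 of 43 raised genes with a position held an X-box (4.65%), against 4.62% of 12757 genes. These were Ddx31, with its match at -97 to -85 of that start, and Capn9, with its match at -508 to -495. Within 300 bases the share was 2.33% against 2.84%. With 1 mismatch allowed it was 53.5% against 47.9%. In each of these searches the share among the raised genes was near that among genes in general. Their promoters had a median GC content of 56%, against 60.3% over all genes tested, and a median of 8.25 CpG dinucleotides against 20.

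**Figure D1:**
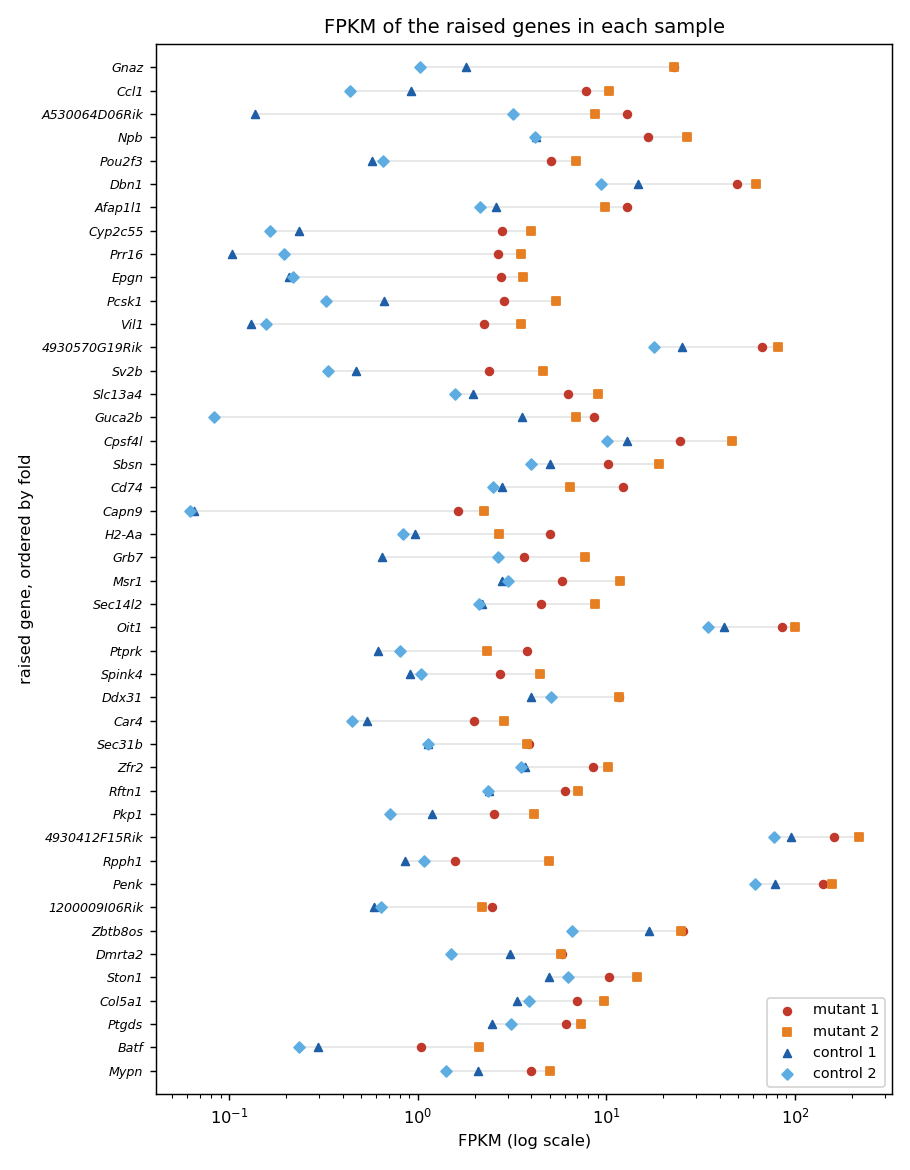
FPKM of each of the 44 raised genes (y axis, ordered by fold) in the 4 samples (x axis, log scale), with 1 symbol per sample and a grey line over the range of each gene. Both mutant symbols lie to the right of both control symbols in every row, as the rule required, and Gnaz has mutant values of 22.7 FPKM against 1.80 and 1.03 FPKM.

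The largest increase was that of Gnaz, which encodes the alpha subunit of the heterotrimeric G protein Gz, an inhibitor of adenylyl cyclase. Its FPKM was 22.7 in both mutant samples, 1.80 in control 1 and 1.03 in control 2. The mutant values were alike and far above the controls, with a ratio of mean FPKM + 1 of 9.81. Cufflinks confidence intervals ran from 21.4 to 23.9 FPKM over the mutant samples and from 0.782 to 2.14 FPKM over the controls. The rule chose Gnaz on these same values. The other 10 tested genes of the Gna family did not follow. With limma on log2(FPKM + 1) and Benjamini-Hochberg adjustment, 0 of them were called in either direction, and their log2 fold changes lay between -0.19 and 0.23. Gnas, the family member with the highest mean FPKM, stood at 119 and 84.3 FPKM in the mutants and at 85.9 and 101 FPKM in the controls. Among 11 other tested genes of Gz signalling, from its RGS proteins to adenylyl cyclases, 0 were called and 1 was lower at an unadjusted p under 0.05. Their median log2 fold change was -0.02, against 0.03 over all genes tested.

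Gnaz lies at chr10:74429922-74479652 on the plus strand (NCBIM37), wholly inside the span of Rtdr1 on the minus strand at chr10:74420222-74495331. Rtdr1, also named Rsph14, is a homologue of a radial spoke protein of flagella. Its FPKM was 0.168 and 0.315 in the mutants, against 17.3 in control 1 and 9.69 in control 2, so that the overlapping genes differed between the genotypes in opposite directions. The log2 fold change of Rtdr1 was -3.50 with an adjusted p of 0.000446 (limma). Next to them, Rab36, a small GTPase gene, stood at 2.10 and 1.91 FPKM in the mutants and at 7.45 and 6.56 FPKM in the controls, with a log2 fold change of -1.41 and an adjusted p of 0.0108 (limma). Gnaz and Rtdr1 share 49731 bases of their spans but 0 bases of annotated exons. Of 43 raised genes with a position, 1 (2.33%) overlapped a gene on the opposite strand that was at least 2-fold lower, against 45 of 12757 genes (0.353%). Any gene on the opposite strand was overlapped by 5 of the 43 (11.6%), against 13.6% of all genes. Whether the levels of Gnaz and Rtdr1 depend on each other was not tested.

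**Figure D2:**
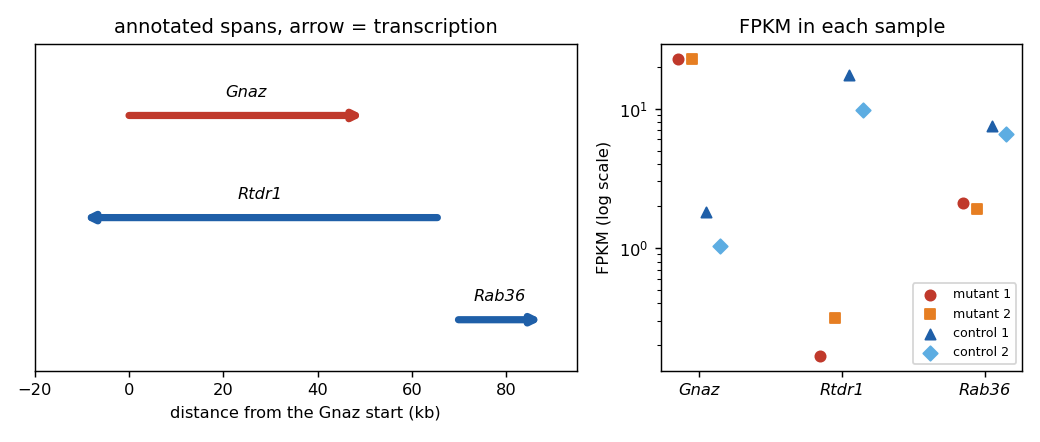
Left, annotated spans of Gnaz, Rtdr1 and Rab36 as arrows in the direction of transcription (x axis, distance from the Gnaz start in kb). Right, FPKM of the same genes in the 4 samples (log scale, 1 symbol per sample), where Gnaz is at 22.7 FPKM in the mutants while Rtdr1 is at 0.168 and 0.315 FPKM and Rab36 at 2.10 and 1.91 FPKM.

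Several raised genes encode secreted signals. Ccl1, a chemokine for T cells and monocytes, had 7.82 FPKM in mutant 1 and 10.3 FPKM in mutant 2, with 0.920 and 0.437 FPKM in the controls. The rule required the groups to be apart. The control values rested on only 8 and 4 fragments, estimated from the width of their confidence intervals. The gene lies at chr11:81990159-81993316 on the minus strand. Its receptor gene Ccr8 was listed at 0 in all 4 samples. Of the 3 chemokine receptor genes that passed the filter 0 were called by limma, also at an unadjusted p under 0.05, and Cxcr4 stood between 1.96 and 2.41 FPKM in the 4 samples. The 4 other tested Ccl genes were likewise not called. The highest of them, Ccl27a, had 133 and 129 FPKM in the mutants and 179 and 131 FPKM in the controls.

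Neuropeptide B, the product of Npb and a ligand of G protein coupled receptors in the brain, was listed at 16.5 and 26.8 FPKM in the mutants and at 4.22 and 4.19 FPKM in the controls. Penk, which encodes the enkephalin precursor, had 140 and 158 FPKM in the mutants and 78.0 and 61.6 FPKM in the controls. Pcsk1, a prohormone convertase that cleaves such precursors in secretory granules, had 2.87 and 5.39 FPKM in the mutants and 0.660 and 0.326 FPKM in the controls. As the rule required, the lower mutant value exceeded the higher control value in all 3 genes. It was 1.80 times that value in Penk, 3.92 times in Npb and 4.35 times in Pcsk1. A list of neuropeptide genes was chosen after these values were seen, and its other members are given without a test. Cpe, a carboxypeptidase of the same processing route, stood at 82.9 and 64.0 FPKM in the mutants and at 52.0 and 76.6 FPKM in the controls, so that its groups overlapped. Pomc, the precursor of corticotropin and melanocortins, lay between 13.1 and 16.0 FPKM in all samples. Pcsk2 stayed under 1 FPKM, with 0.161 and 0.445 FPKM in the mutants and 0.443 and 0.368 FPKM in the controls.

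Epgn encodes epigen, a ligand of the epidermal growth factor receptor, and had 2.76 and 3.60 FPKM in the mutants against 0.208 and 0.218 FPKM in the controls, from 9 and 10 estimated fragments. Grb7, an adaptor that binds activated receptor tyrosine kinases of this kind, had 3.67 and 7.71 FPKM in the mutants but 0.649 and 2.67 FPKM in the controls. Its control samples thus differed from each other more than control 2 did from mutant 1. Oit1, named Fam3d in current nomenclature, encodes a secreted protein of the gut and was abundant, with 84.8 and 100.1 FPKM in the mutants and 41.9 and 34.4 FPKM in the controls. Ptgds, a prostaglandin D synthase that is itself secreted, was close to the threshold with 6.09 and 7.33 FPKM against 2.48 and 3.11 FPKM.

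Other raised genes regulate or build the actin cytoskeleton and cell contacts. Dbn1 encodes drebrin, an actin-binding protein known from dendritic spines, and lies at chr13:55574787-55589529 on the minus strand. It had 49.5 and 62.4 FPKM in the mutants and 14.8 and 9.37 FPKM in the controls. At 564 to 4710 estimated fragments per sample, it was among the better measured of the strong increases. Of 13 other tested genes for drebrin partners and actin bundles, 0 were called by limma and 1 was lower at an unadjusted p under 0.05. Their median log2 fold change was 0.07, and Cfl1, the most abundant, lay between 120 and 132 FPKM.

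Vil1, the villin of intestinal microvilli, had 2.24 and 3.51 FPKM in the mutants against 0.131 and 0.157 FPKM in the controls. Afap1l1, whose product binds actin filaments, had 12.8 and 9.79 FPKM against 2.60 and 2.13 FPKM. Mypn, a sarcomeric protein, was the gene nearest to the threshold with 3.99 and 5.04 FPKM against 2.09 and 1.40 FPKM. In Vil1 the lower mutant value was 14.3 times the higher control value, and in Mypn it was 1.91 times. Pkp1, a desmosomal plakophilin, had 2.52 and 4.13 FPKM against 1.19 and 0.711 FPKM. Col5a1, a fibrillar collagen chain, had 7.01 and 9.76 FPKM against 3.36 and 3.87 FPKM. Ptprk, a receptor-type tyrosine phosphatase of cell contacts, had 3.81 and 2.33 FPKM against 0.616 and 0.800 FPKM. It was one of the 11 genes that were higher in mutant 1 than in mutant 2.

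Transcription factor genes were few. Pou2f3, a POU domain factor needed for tuft cells of epithelia, had 5.11 FPKM in mutant 1 and 6.92 FPKM in mutant 2. The controls stood at 0.569 and 0.650 FPKM, so the gene passed the expression filter through the mutant samples alone. The intervals of the groups were apart, with 4.57 FPKM as the lowest bound in the mutants and 0.842 FPKM as the highest in the controls. The rule chose Pou2f3 on these same values, so this separation carries no further weight. The gene lies at chr9:42932022-43018452 on the minus strand. Tuft cell genes were at or near 0 in the same samples, as Trpm5 did not pass 0.0548 FPKM and Il25 did not pass 0.0404 FPKM. The 1 other tuft cell gene that passed the filter, Ltc4s, had 0.769 and 0.501 FPKM in the mutants and 1.17 and 1.71 FPKM in the controls, with a log2 fold change of -0.57 and an adjusted p of 0.378 (limma). Of 5 other tested Pou genes 0 were called by limma. Pou5f2, the most abundant, lay between 31.0 and 37.5 FPKM.

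Dmrta2, a doublesex-related factor of the developing forebrain, had 5.79 and 5.72 FPKM in the mutants and 3.09 and 1.49 FPKM in the controls. Batf, an AP-1 family factor of lymphocytes, had 1.04 and 2.10 FPKM against 0.297 and 0.234 FPKM, from 6 and 5 estimated fragments in the controls, and its level in mutant 1 was just over the expression filter. Zfr2 encodes a zinc finger RNA-binding protein and had 8.51 and 10.2 FPKM against 3.71 and 3.54 FPKM. The control values of Zfr2 were nearly equal, and its lower mutant value was 2.30 times the higher of them. Ddx31, a DEAD-box RNA helicase and the gene with the X-box shown above, had 11.7 FPKM in both mutants against 3.97 and 5.05 FPKM in the controls. Gtf3c4, whose start lies 0.099 kb before that of Ddx31 in the annotation, was listed at 13.0 and 12.5 FPKM in the mutants and at 10.1 and 12.1 FPKM in the controls. Its log2 fold change was 0.19 with an adjusted p of 0.9999 (limma), so a change of the neighbour was not detected.

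A further set is known from the gut epithelium. The list was chosen after the values were seen and held 6 of the raised genes, Vil1 (above), Capn9, Guca2b, Spink4, Cyp2c55 and Car4. Capn9, a calpain of the digestive tract, had 1.64 and 2.25 FPKM in the mutants and 0.0653 and 0.0616 FPKM in the controls, where only 4 fragments were estimated in each sample. Its lower mutant value was 25.1 times the higher control value, the highest ratio of this kind among the 44 genes. Cyp2c55, a cytochrome P450 of the intestine, had 2.79 and 3.96 FPKM against 0.233 and 0.165 FPKM, the latter from 12 and 9 estimated fragments. Car4, a membrane-anchored carbonic anhydrase, had 1.99 and 2.87 FPKM against 0.538 and 0.448 FPKM. Both were low and passed the expression filter only through the mutant samples, and the rule required their separation between the genotypes.

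Spink4, a protease inhibitor of goblet cells, had 2.74 and 4.42 FPKM against 0.914 and 1.04 FPKM, but its confidence intervals overlapped between the groups. Guca2b, which encodes the gut hormone uroguanylin, had 8.54 and 6.90 FPKM in the mutants, 3.59 FPKM in control 1 and 0.0829 FPKM in control 2, a value of 1 estimated fragment. The controls of Guca2b therefore differed from each other by more than control 1 differed from mutant 2. Of the listed genes that were not raised, the intestinal factor Cdx2 was at 0 in all 4 samples. Muc2, the main gut mucin, did not pass 0.0520 FPKM. Epcam, a general epithelial marker, stood at 13.0 and 14.6 FPKM in the mutants and at 13.2 and 16.4 FPKM in the controls. Lgals4, a galectin of the gut, had 3.29 FPKM in both mutants and 2.84 and 2.78 FPKM in the controls.

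Immune genes formed a smaller set. Cd74, the invariant chain that guides MHC class II molecules, had 12.2 FPKM in mutant 1 and 6.43 FPKM in mutant 2, against 2.81 and 2.51 FPKM in the controls. H2-Aa, a class II alpha chain, had 5.01 and 2.69 FPKM against 0.962 and 0.834 FPKM. In both genes mutant 1 was the highest sample. Other class II genes were looked up after these values were seen, and they are given without a test. H2-Eb1 had 2.85 and 1.40 FPKM in the mutants and 0.829 and 0.604 FPKM in the controls, and H2-Ab1 had 8.76 and 6.58 FPKM against 6.14 and 4.87 FPKM. Ciita, the master regulator of class II genes, was listed at 0.0604 and 0.0786 FPKM in the mutants and at 0 and 0.0132 FPKM in the controls. Of the 8 listed genes other than Cd74 and H2-Aa, 5 had both mutants above both controls. Only 4 of the 8 passed the expression filter. Among all genes that passed it 16.3% had this order, so the shares rest on unlike genes.

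Summed markers of immune cells were not higher in both mutants than in both controls. The summed FPKM of 9 lymphocyte markers was 2.20 in mutant 1, 1.57 in mutant 2, 1.24 in control 1 and 1.73 in control 2, and 0 of them passed the expression filter. That of 11 macrophage markers was 93.0, 159, 174 and 163 FPKM in the same order, most of it from Aif1, and the other 10 summed to 51.4, 34.6, 41.6 and 53.9 FPKM. C1qa, a complement gene of macrophages, was highest in mutant 1, as were Cd74 and H2-Aa, with 12.2 FPKM against 6.97 FPKM in mutant 2 and 8.57 and 7.35 FPKM in the controls. C1qb and Csf1r were also highest in mutant 1, with 10.3 and 4.27 FPKM, and their values in mutant 2 were 6.91 and 2.67 FPKM, below both controls. Cd14 was highest in mutant 1 as well, whereas Aif1, Cd68, Emr1, Mrc1, Lyz2, Fcgr1 and Cd163 were highest in a control sample. None of these lymphocyte or macrophage markers was at 0 throughout. The part of these cells in the class II values was not tested. Msr1, a scavenger receptor of macrophages, was among the raised genes, with 5.81 and 11.7 FPKM in the mutants against 2.81 and 3.02 FPKM in the controls. Here mutant 2 was the highest sample, in contrast to Cd74 and H2-Aa. A530064D06Rik, a gene that RefSeq also lists as Trem4, had 12.9 and 8.70 FPKM in the mutants, 0.138 FPKM in control 1 and 3.21 FPKM in control 2, so the controls differed widely. Rftn1, which encodes the lipid raft protein raftlin, had 6.04 and 7.03 FPKM against 2.38 and 2.37 FPKM.

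Membrane transport and traffic were represented by genes at low to middle levels. Slc13a4, a sodium-dependent sulfate transporter, had 6.24 and 9.05 FPKM in the mutants and 1.97 and 1.58 FPKM in the controls. Sv2b, a glycoprotein of synaptic vesicles, had 2.39 and 4.63 FPKM against 0.468 and 0.333 FPKM. The spread between the mutants of Sv2b was wide, though both lay above the controls, as the rule required. Ston1, an endocytic adaptor, had 10.4 and 14.6 FPKM against 4.97 and 6.28 FPKM. Sec31b, a component of the COPII vesicle coat, had 3.89 and 3.77 FPKM against 1.14 and 1.13 FPKM. These 4 values of Sec31b left almost no spread within a genotype. Sec14l2, a lipid-binding protein, had 4.48 and 8.66 FPKM against 2.18 and 2.11 FPKM. 1200009I06Rik, named Exoc3l4 in current nomenclature, had 2.47 and 2.20 FPKM against 0.587 and 0.638 FPKM.

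The most abundant raised gene was 4930412F15Rik, now named Fam221b, at 161 and 218 FPKM in the mutants and 95.7 and 77.8 FPKM in the controls. 4930570G19Rik, a long non-coding RNA gene, had 66.4 and 80.8 FPKM against 25.01 and 17.8 FPKM. Cpsf4l, related to a subunit of the polyadenylation machinery, had 24.6 and 46.2 FPKM against 12.9 and 10.05 FPKM. All 3 were higher in mutant 2 than in mutant 1. Zbtb8os, the archease that assists the RNA ligase of tRNA splicing, had 25.4 and 24.8 FPKM against 16.8 and 6.55 FPKM, and its controls differed more than its mutants. Sbsn, the epidermal protein suprabasin, had 10.2 and 18.9 FPKM against 5.05 and 3.97 FPKM. Prr16, a regulator of cell size, had 2.68 and 3.54 FPKM against 0.103 and 0.195 FPKM, the latter from 6 and 12 estimated fragments. Rpph1, the RNA subunit of RNase P, had 1.58 and 4.94 FPKM against 0.850 and 1.08 FPKM, from 3 to 16 estimated fragments per sample, and its confidence intervals overlapped between the genotypes.

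The threshold cut through a continuous range. The genes just inside it were Mypn at 2.01, Batf at 2.03 and Ptgds at 2.03 for the ratio of mean FPKM + 1. Just outside were Art1, Mmp24 and Pold4, each at 1.99. Over the 44 genes the ratio ran from 2.01 to 9.81 with a median of 2.51. The lowest mutant FPKM was 1.37 to 25.1 times the highest control FPKM. Confidence intervals of both mutants lay above those of both controls in 42 of the 44, against 3.35% of all genes tested. By limma, 30 of the 44 were called higher, where 0.308% of all genes tested (40) were, and 327 genes (2.52%) were called lower. The same contrast chose the genes, so these counts carry no further weight. Without mutant 1, H2-Aa, Ptprk and 1200009I06Rik no longer met the rule. Without mutant 2 it returned 59 genes with 31 of the 44, and those lost were Grb7, Msr1, Sec14l2, Spink4, Pkp1, 4930412F15Rik, Rpph1, Penk, Ston1, Col5a1, Ptgds, Batf and Mypn. Without control 2 it returned 60 genes with 36 of the 44, without Guca2b, Pkp1, 4930412F15Rik, Penk, Zbtb8os, Dmrta2, Batf and Mypn.

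**Figure D3:**
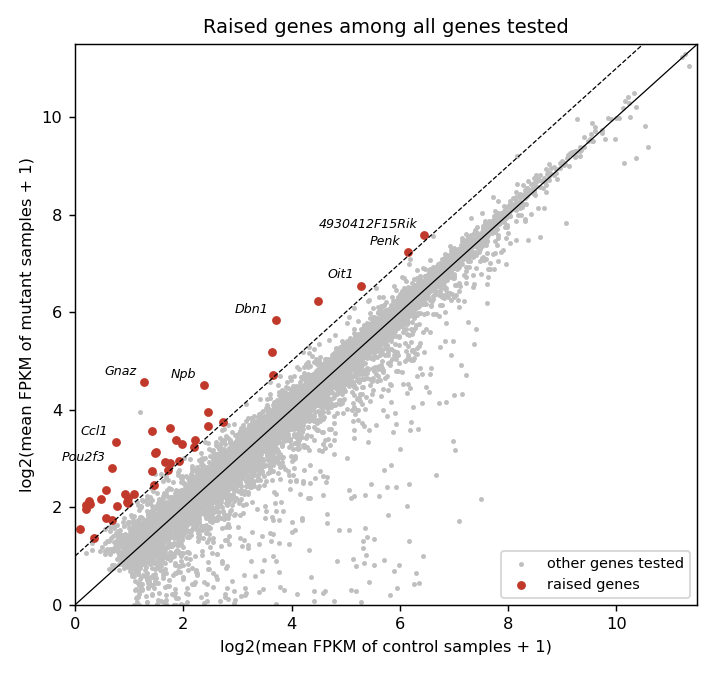
Log2 of the mean mutant FPKM + 1 (y axis) against log2 of the mean control FPKM + 1 (x axis) for 12985 genes, with the 44 raised genes in red. The solid line marks equal levels and the dashed line 2-fold higher in the mutants, and most raised genes lie at the low left, with 35 of the 44 under a mean of 10 FPKM.

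Raised genes were mostly weakly expressed. Their mean FPKM over the 4 samples had a median of 4.58, against 9.44 over all genes tested, and it was under 10 FPKM in 35 of the 44 (79.5%), against 51.6% of all. In the controls, 17 of the 44 (38.6%) had a mean under 1 FPKM, against 1.89% of all genes. The expression filter was passed through the mutant samples alone by 14 of the 44, and by 81 genes (0.624%) of all tested, so these genes had to differ. Estimated fragments per gene and sample had a median of 357 in the mutants and 87.4 in the controls. The strongly expressed exceptions were 4930412F15Rik, Penk, Oit1, 4930570G19Rik and Dbn1.

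Mutant 2 was above mutant 1 in 33 of the 44 genes (75.0%), whereas 31.9% of all genes tested had this order. In the controls, control 2 was above control 1 in 15 of the 44 (34.1%), against 59.0% of all. The absolute log2 difference between the mutants had a median of 0.38 over the raised genes and 0.21 over all genes. Between the controls the medians were 0.19 and 0.22. The rule used these same values, so the order and the spread are described without a test. The FPKM were not rescaled here. Median-ratio size factors were 1.066 in mutant 1, 0.9645 in mutant 2, 0.954 in control 1 and 1.047 in control 2. The genes that went the other way between the mutants were Gnaz, A530064D06Rik, Afap1l1, Guca2b, Cd74, H2-Aa, Ptprk, Sec31b, 1200009I06Rik, Zbtb8os and Dmrta2. Elongating spermatid markers were also lower in mutant 1 than in mutant 2, as given above, and their part in this order was not tested.

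**Figure D4:**
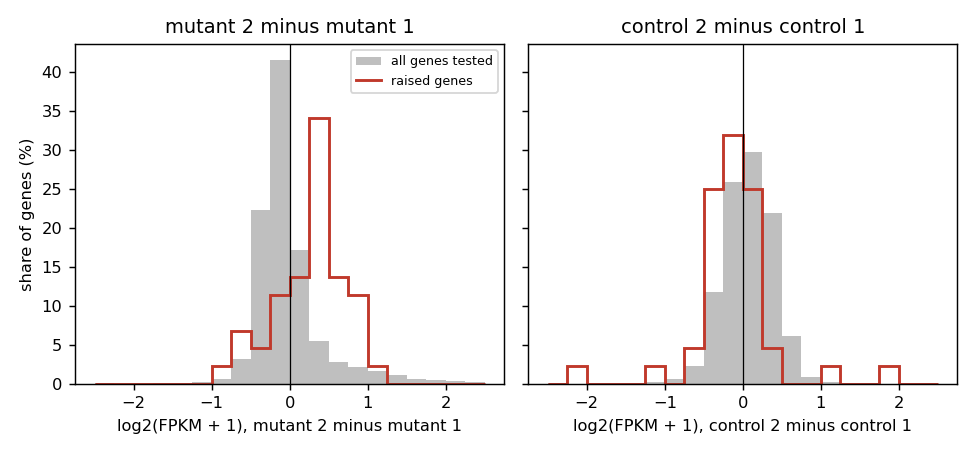
Histograms of the difference in log2(FPKM + 1) between the samples of a genotype (x axis) as a share of genes in percent (y axis), for all 12985 genes tested (grey) and the 44 raised genes (red line). The raised genes lie to the right in the mutants, with 75.0% above 0 against 31.9% of all genes, and slightly to the left in the controls, with 34.1% above 0 against 59.0%, and differences beyond the axis are drawn in the outermost bins.

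The raised genes were spread over the genome. Chromosomes 4 and 11 held 6 each, chromosomes 10 and 17 held 4 each, and chromosome X held 0, where 4.22% of the genes tested lie. The chromosome of Rfx2, 17, held 9.09% of the raised genes against 4.94% of all. On it, A530064D06Rik and Rftn1 lay 8.67 and 6.64 Mb from Rfx2, so that 2 of the 44 (4.55%) were within 10 Mb, against 0.747% of all genes. Alleles near Rfx2 that came with the targeted clone cannot be told apart from the mutation there. The nearest pair of raised genes was Ddx31 and Col5a1, 0.954 Mb apart.

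Genes beside the raised genes were examined with limma, since the rule did not use them. There were 172 tested genes among the 2 nearest on either side of a raised gene, with the raised genes themselves left out. Of these neighbours, 1 was called higher (0.581%) and 7 were called lower (4.07%), against 0.308% and 2.52% of all genes. Raised genes stayed in the count over all genes, where they made up 30 of the 40 called higher. The shares called higher thus rest on unlike sets of genes. The median log2 fold change of the neighbours was 0.06, against 0.03 over all. The neighbour called higher was Hint2, beside 4930412F15Rik, with 22.1 and 23.7 FPKM in the mutants and 9.31 and 12.8 FPKM in the controls (log2 fold change 0.999, adjusted p = 0.0466 from limma). Those called lower, besides Rtdr1 and Rab36, were Gm216 and Plcd4 near Vil1, Gtf2a1l near Ston1, Kif6 near Rftn1 and Slc6a7 near Cd74. Gtf2a1l, a germ cell subunit of the general factor TFIIA, stood at 47.3 and 61.9 FPKM in the mutants and at 164 and 141 FPKM in the controls, with a log2 fold change of -1.47 and an adjusted p of 0.00487 (limma). Kif6, a kinesin gene, stood at 0.968 and 0.725 FPKM against 4.70 and 4.24 FPKM. The number of neighbours called in either direction, 8, became 13 without mutant 1, 18 without mutant 2, 2 without control 1 and 5 without control 2. Of these 8 genes, Kif6, Rab36 and Rtdr1 were still called with median-ratio scaling of the samples, Rtdr1 and Slc6a7 without an expression filter, and Gtf2a1l, Plcd4, Rab36 and Rtdr1 with a filter at an FPKM of 5, so Hint2 was called in none of these.

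Genes that share the stem of a symbol with a raised gene were the last comparison. Of 405 such genes tested, with raised genes left out, 0 were called higher and 5 lower by limma. At an unadjusted p under 0.05, 4 were higher and 20 lower, a limit that 2.01% and 6.68% of all genes passed, raised genes included. The stem Slc, from Slc13a4, alone gave 193 of the 405 and 3 of the 5 called lower. A shared stem is a match of letters and does not show a close relationship. Those called lower were Car2, Cyp2u1, Slc14a2, Slc44a5 and Slc6a7. Car2, a cytosolic carbonic anhydrase, had 0.836 and 0.538 FPKM in the mutants against 7.15 and 4.69 FPKM in the controls, where its relative Car4 was higher in the mutants. Slc14a2, a urea transporter, had 0.142 and 0.415 FPKM against 9.36 and 6.23 FPKM. The number called was 4 without mutant 1, 12 without mutant 2, 2 without control 1 and 3 without control 2. Over all the marker and pathway lists together, 134 tested genes that are not among the 44 had a median log2 fold change of 0.03. By limma 0 of them were called, with 2 higher and 5 lower at an unadjusted p under 0.05. The number called was 5 without mutant 1 and to 22 without mutant 2. Both of the 2 higher ones were among the 8 tested heat shock and immediate early genes, which had a median of 0.08. They were Hspb1, with 21.2 and 19.3 FPKM in the mutants against 14.1 and 12.1 FPKM, and Egr1, with 2.996 and 3.17 FPKM against 1.72 and 2.10 FPKM (adjusted p = 0.227 and 0.549, limma). The 11 tested p53 targets had a median of 0.06, and 2 interferon response genes were tested, with a median of -0.11.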

How the data were processed

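Testis RNA of 24-day-old mice was sequenced on an Illumina HiSeq instrument. Per the submitters' processing notes the reads were aligned to mm9 with TopHat2 2.0.6. The authors deposited FPKM for each gene and sample with the bounds of a confidence interval, normalized for transcript length and depth, with between 22553 and 22563 entries per sample. Read totals were not used. The number of fragments behind a value was estimated from the width of its interval, as the square of FPKM over the standard error that the width implies, and covers counting error only. The strand setting of the libraries is not given in the sources used here, so reads of overlapping genes on opposite strands cannot be told apart.

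Entries with the same symbol were summed. Those reaching an FPKM of 1 in 2 or more of the 4 samples entered limma 3.58.1 in R 4.3.3 on log2(FPKM + 1), with eBayes and a mean-variance trend, two-sided, Benjamini-Hochberg adjusted, at a threshold of 0.05. With a pseudocount of 1 the changes of low genes are understated. The scripts were tested on simulated data. With 2 samples per genotype an exact permutation test of a single gene cannot go below p = 0.333. Nothing says that samples of a genotype come from separate litters, so p-values measure the spread between these samples. The raised genes and the lists were chosen with earlier results of these data known, and the lists of MHC class II, gut and neuropeptide genes after the values were seen. Every raised gene is named. Of related and neighbouring genes, those called and the most abundant ones are named, and other genes were chosen after their values were seen.

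The nearest 2 tested genes on each side were found in GENCODE vM1 on NCBIM37, since the deposited tables give no positions, and 21478 symbols had one. GENCODE also annotates a longer processed transcript over Ccl1, which the deposited values do not separate. Raised genes overlapping other genes are uncertain over the shared bases (4930412F15Rik with Tmem8b, Cpsf4l with D11Wsu47e, H2-Aa with H2-Ab1, Vil1 with Usp37, Sec31b with Ndufb8). Promoters came from RefSeq (GRCm38.p6). Without an entry there were Gnaz, Npb, Pou2f3, Afap1l1, Prr16, Cd74, Grb7, Msr1, Spink4, Pkp1, Rpph1 and Penk. The software was pandas 2.3.3, numpy 2.4.6, matplotlib 3.10.9 and scipy 1.17.1 under python 3.11.15.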

Additional observations from a re-analysis of the deposited data

How the results depend on the processing

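The rule found 44 genes. It found 101 with a pseudocount of 0.1 and 111 with one of 0.01, which keep all 44 by construction, as does no filter, and 25 with a filter at an FPKM of 5, and between 59 and 99 with a replicate left out. Without mutant 2 it kept 31 of the 44. Median-ratio scaling gave 41 genes, without Zbtb8os, Batf and Mypn. In all 11 alternatives, these 3 included, 16 genes were kept, among them Gnaz, Ccl1, Npb, Pou2f3 and Dbn1, and Batf was kept in 6. The median log2 ratio of 1.33 was 1.77 and 1.84 with the smaller pseudocounts and between 1.16 and 1.54 with a replicate left out.

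Of all genes, limma called 40 higher and 327 lower. The numbers were 16 and 216 with median-ratio scaling, 17 and 199 without a filter, 17 and 202 with a filter at an FPKM of 5, and 67 higher with robust eBayes. With a replicate left out, which leaves a lone sample assumed to vary like the others, between 13 and 162 were called higher and between 167 and 948 lower. Among the neighbours, counted anew in each setting, 8 were called in the report, 3 with median-ratio scaling, 1 without a filter, 3 with a filter at an FPKM of 5, 13 with robust eBayes and between 2 and 18 with a replicate left out. Among the genes with a shared stem, 5 were called in the report, 2 with median-ratio scaling, 1 with a filter at an FPKM of 5 and between 2 and 12 with a replicate left out. Of the listed genes 1 was called without a filter, 1 with robust eBayes and between 0 and 22 with a replicate left out. These are counts and do not say which genes were called. The cause was not tested. The number of raised genes with an X-box was 2, and 1 within 300 bases and 23 with 1 mismatch.

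Samples with the same number deviated from their group means with r = -0.15 over genes, so the numbers are not taken to pair the samples. The summed Leydig and erythroid markers did follow the sample number in both genotypes, as given above, and the source of that order was not tested. With a replicate block from the labels 70 genes were called higher and 525 lower, with 13 neighbours, 7 genes of a shared stem and 7 listed genes. With the crossed pairing, chosen after seeing the data, 28 were called higher and 266 lower, with 6 neighbours and 2 genes of a shared stem. Depth limits the low genes most, as 17 raised genes had a mean control FPKM under 1. Under 15 estimated fragments in a control lay behind 11 raised genes, Ccl1, A530064D06Rik, Cyp2c55, Prr16, Epgn, Vil1, Guca2b, Capn9, Spink4, Rpph1 and Batf.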
